A study of Mus musculus with 4 samples.

Results

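The genes described here are 9 anterior members of the HoxA and HoxD clusters of the mouse, Hoxa2, Hoxa3, Hoxa4, Hoxa5, Hoxa6 and Hoxa7 on chromosome 6 and Hoxd1, Hoxd3 and Hoxd4 on chromosome 2. They were taken by symbol from a deposited table of 22691 genes, in which each of the 9 had a value in both genotypes, as did 20606 genes in all. They were chosen by symbol with the WT and MD1 values of this table already known, so these values and the differences between them are descriptions. Trimethylation of lysine 27 of histone H3 (H3K27me3) had been mapped by ChIP-seq, the sequencing of immunoprecipitated chromatin, in embryonic fibroblasts of female C57BL6/J fetuses at stage E13.5. The immunoprecipitation used the mouse monoclonal antibody CMA323. The groups were Smchd1 +/+ cells (WT) and Smchd1 MD1/MD1 cells (MD1), the latter deficient for SmcHD1 according to the series' design, with 1 ChIP and 1 input library each. Without replicates the genotypes could not be tested against each other, and no p-value appears here. The labels do not say how many fetuses each library came from.

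Hox genes encode homeodomain transcription factors that give cells their position along the head-to-tail axis. They stand in clusters in the order of the body regions they pattern, with anterior genes at the 3′ end and posterior genes at the 5′ end, and genes at the same place in different clusters form paralog groups numbered from the anterior end. Polycomb repressive complex 2 writes H3K27me3 over the Hox genes that a cell keeps silent, and the mark recedes from those that are active. SmcHD1 is a noncanonical SMC-family chromatin protein known for its part in X inactivation and in the silencing of some autosomal gene clusters.

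Values are log2 enrichments per gene, so that 0 is no enrichment and 1 a 2-fold enrichment over a denominator that is not given in the sources used here. They are ratios, so they do not grow with gene length as read counts do, but length still bears on them. The scatter of differences, given below, was smaller for the longest of the genes described. How a mark over part of a gene weighs in its value is not known. The difference is MD1 minus WT. The depth of the libraries is unknown, and no counting error can be given. The cells are a bulk population, in which more cells with the mark and more mark per cell cannot be told apart. The median autosomal gene had a value of -0.78 in WT and -0.90 in MD1, and the median autosomal difference was -0.27. The median of 14 fibroblast markers was low, -2.79 in WT and -3.35 in MD1, at autosomal percentiles 8.27 and 19.3. All 14 were below 0 in both genotypes, as was the median autosomal gene. Not all were low, since Lum stood at percentile 49.3 in WT and 63.0 in MD1. The medians of 15 markers of neural, epithelial, endothelial, blood and muscle cells were 1.35 and 1.14. The values used here do not show which of these genes the cells express. The mark at Smchd1 itself was -2.44 in WT and -3.47 in MD1, which does not check the genotype, since the allele need not alter the mark.

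Promoter sequences were available for 8 of the 9 genes from RefSeq (build GRCm38.p6), each from 250 bases before to 50 bases after the annotated start. The 4 printed here belong to the gene with the largest difference (Hoxa6), the HoxA gene with the smallest (Hoxa7), the one gene with a negative difference (Hoxd1) and the gene with the fewest CpG dinucleotides (Hoxd4). Capitals mark CpG dinucleotides, the bases that form the CpG islands to which Polycomb complexes are known to be recruited. They lie at chr6:52208623-52208922 on the minus strand, chr6:52218524-52218823 on the minus strand, chr2:74762730-74763029 on the plus strand and chr2:74721728-74722027 on the plus strand, in the order in which they are printed.
Hoxa6: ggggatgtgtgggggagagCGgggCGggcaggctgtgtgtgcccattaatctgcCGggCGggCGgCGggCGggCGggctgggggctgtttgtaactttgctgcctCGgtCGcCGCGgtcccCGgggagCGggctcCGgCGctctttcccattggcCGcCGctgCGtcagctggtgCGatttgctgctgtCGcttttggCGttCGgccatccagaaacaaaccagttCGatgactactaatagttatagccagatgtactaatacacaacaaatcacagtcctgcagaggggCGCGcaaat
Hoxa7: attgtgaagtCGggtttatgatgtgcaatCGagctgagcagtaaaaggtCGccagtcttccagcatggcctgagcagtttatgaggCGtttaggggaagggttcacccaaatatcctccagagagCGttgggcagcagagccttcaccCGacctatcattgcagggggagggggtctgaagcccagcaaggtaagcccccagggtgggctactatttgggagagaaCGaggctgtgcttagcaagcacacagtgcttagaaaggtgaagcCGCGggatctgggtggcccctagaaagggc
Hoxd1: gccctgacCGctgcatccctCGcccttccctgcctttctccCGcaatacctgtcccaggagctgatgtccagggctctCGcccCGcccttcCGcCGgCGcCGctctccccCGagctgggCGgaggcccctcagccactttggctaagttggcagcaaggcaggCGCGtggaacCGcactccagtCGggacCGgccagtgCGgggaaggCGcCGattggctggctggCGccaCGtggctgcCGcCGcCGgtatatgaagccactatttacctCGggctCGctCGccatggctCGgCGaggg
Hoxd4: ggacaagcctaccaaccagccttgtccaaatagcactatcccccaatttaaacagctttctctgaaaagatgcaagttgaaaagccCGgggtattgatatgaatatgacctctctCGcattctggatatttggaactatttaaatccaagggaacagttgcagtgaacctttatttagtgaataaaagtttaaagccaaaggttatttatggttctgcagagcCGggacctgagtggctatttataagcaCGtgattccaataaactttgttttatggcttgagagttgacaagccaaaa

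H3K27me3 was higher in MD1 than in WT at 8 of the 9 genes, and lower at Hoxd1. The median of the 9 genes was 0.65 in WT and 1.62 in MD1, and the median of their differences was 0.90. Positive differences were found at 31.0% of the 19836 autosomal genes with values, and at 53.9% of the 5625 autosomal genes whose WT value lay within the range of the 9 genes. The enrichment was at least 2-fold higher in MD1 at 2 of the 9, Hoxa6 and Hoxa3, against 1.61% of autosomal genes and 0.996% of those in the same WT range. None of the 9 was at least 2-fold lower, against 20.4% of autosomal genes and 2.24% of those in the same WT range. These shares are set beside the counts as background only, since the genes were chosen with the contrast known.

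**Figure D1:**
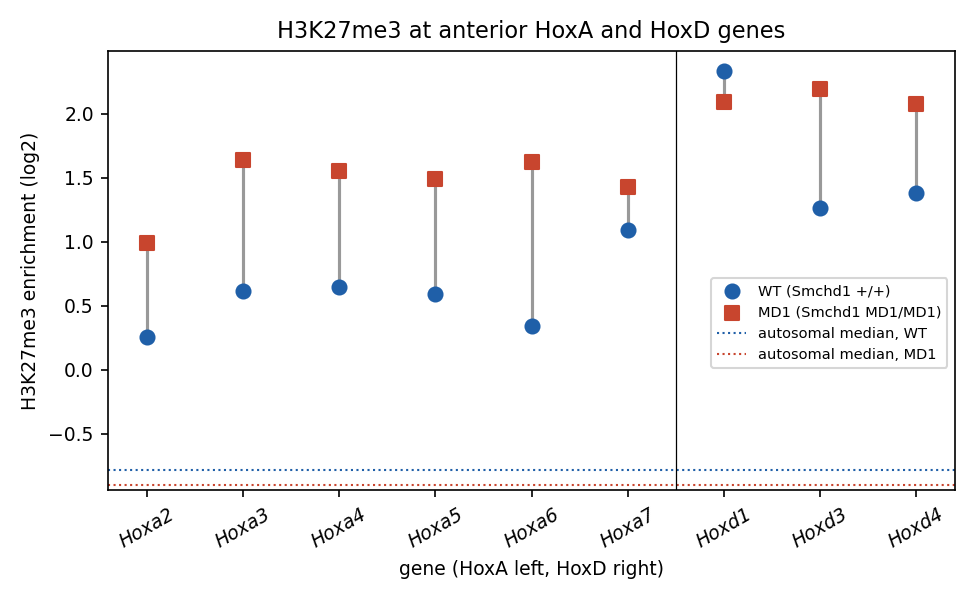
H3K27me3 enrichment (log2) of each gene in WT (circles) and MD1 (squares), 1 value per genotype and no error bars because there were no replicates; dotted lines are the autosomal medians, -0.78 in WT and -0.90 in MD1. The square lies above the circle at 8 genes and below it at Hoxd1, whose difference of -0.24 becomes 0.027 after centring on the autosomal median.

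The 6 HoxA genes had intermediate WT values and were all higher in MD1. Hoxa2 (chromosome 6, 52112416 to 52114830, minus strand, mm9), which specifies the identity of the second branchial arch and of hindbrain segments, went from 0.25 in WT to 0.99 in MD1, a difference of 0.74. It had the lowest level of the 9 in both genotypes. Hoxa3 (52119061 to 52163066), needed for the thymus, parathyroid and other derivatives of the third pharyngeal pouch, went from 0.62 to 1.64, a difference of 1.03 or 2.04-fold. Hoxa4 (52139686 to 52141702), which patterns cervical vertebrae, went from 0.65 to 1.55, a difference of 0.90. Hoxa5 (52151753 to 52154586), required for the development of the airways and lung, stood at 0.59 in WT and 1.49 in MD1, also 0.90 apart. The WT values of Hoxa3, Hoxa4 and Hoxa5 lay within 0.060 of each other, and single libraries cannot order them. Hoxa6 (52156364 to 52158623), a less studied gene of the lower cervical and thoracic region, had the largest difference of the 9, 1.28 or 2.42-fold, from 0.35 to 1.62. Hoxa7 (52165623 to 52168572), which takes part in patterning thoracic vertebrae, had the highest WT value of the 6, 1.09, and the smallest difference, 0.34, with 1.43 in MD1.

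Most of the HoxA genes lay closer together in MD1 than in WT. From Hoxa3 to Hoxa7 the 5 values spanned 0.74 in WT and 0.21, from 1.43 to 1.64, in MD1, while Hoxa2 stayed below them. Over all 6 genes, with Hoxa2, the range was 0.83 in WT and 0.65 in MD1. In MD1, Hoxa7 went from the highest of the 6 in WT to the next lowest, and Hoxa6 from the next lowest to the next highest. Against autosomal genes of the same genotype the 6 genes lay between percentiles 70.0 and 86.2 in WT and between 83.6 and 92.4 in MD1.

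The 3 HoxD genes stood above every one of the 6 HoxA genes in both genotypes. Hoxd3 (chromosome 2, 74550050 to 74586328, plus strand), which shapes the upper cervical vertebrae together with Hoxa3, went from 1.27 in WT to 2.19 in MD1, a difference of 0.93 or 1.90-fold. Hoxd4 (74560035 to 74567216), a retinoic acid-responsive gene of the hindbrain and cervical region, went from 1.38 to 2.08, a difference of 0.70. Hoxd1 (74601037 to 74603199), known in the mouse from the wiring of pain-sensing neurons, went from 2.34 to 2.09. Its difference of -0.24 was the only negative one and was smaller than the scatter of genes of like level and length (SD 0.53), and became 0.027 after centring on the autosomal median. In WT the 3 genes spanned 1.07, with Hoxd1 well above Hoxd3 and Hoxd4, and in MD1 they spanned 0.11. In MD1 the lowest HoxD gene, Hoxd4, stood 0.44 above the highest HoxA gene, Hoxa3, and in WT the gap, between Hoxa7 and Hoxd3, was 0.18. The median difference was 0.90 over the HoxA genes and 0.70 over the HoxD genes, 0.20 apart.

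The values do not weigh equally. No replicate gives their error, so the SD of differences among the 500 autosomal genes nearest in mean level and of the same length quartile, each corrected for its own level, was taken as a yardstick. It was 0.26 for Hoxa3, 0.25 for Hoxd3 and 0.31 for Hoxd4, the 3 longest genes, and between 0.53 and 0.67 for the others. The difference, corrected for level in the same way, exceeded this SD at 7 genes, all but Hoxa7 and Hoxd1, and exceeded 2 times the SD at 2, Hoxa3 and Hoxd3. Written as ratios of whole numbers in lowest terms, after removing 1 constant per genotype, Hoxa3 was 937 to 630 in WT and 1891 to 593 in MD1, and Hoxd3 was 1236 to 529 and 627 to 134. The ratios of Hoxa2 were 22 to 19 and 63 to 31, and those of Hoxa6 37 to 30 and 85 to 27. The numbers behind such reduced ratios may be multiples of them and are unknown.

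The 9 values are also not independent. The interval of Hoxa3 contains those of Hoxa4, Hoxa5 and Hoxa6 and overlaps the antisense gene Hoxaas3, and that of Hoxd3 contains Hoxd4 and overlaps Hoxd3os1. ChIP reads carry no strand, so these genes can share reads. Hoxa2, Hoxa7 and Hoxd1 are the 3 genes that overlap no other listed gene, and their differences were 0.74, 0.34 and -0.24. Without Hoxa3 and Hoxd3, Hoxa6 was the one gene at least 2-fold higher among the remaining 7.

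Differences were positive from Hoxa2 to Hoxa9 and from Hoxd3 to Hoxd8 and negative further towards the 5′ end of each cluster, and Hoxd1, at the 3′ end of HoxD, was the exception with its small negative difference (positive after centring). The genes next to the chosen ones on the posterior side were Hoxa9, with 0.79 in WT and 1.33 in MD1, and Hoxd8, with 0.49 and 0.79. Both had positive differences, of 0.54 and 0.30, so the sign did not turn at the edge of the chosen group. It turned between Hoxa9 and Hoxa10 (1.38 and 1.26), or 1 gene further on after centring on the autosomal median, which took Hoxa10 from -0.12 to 0.15, and between Hoxd8 and Hoxd9 (1.49 and 0.68). Of the 9 genes of paralog groups 9 to 13 in both clusters, 8 were lower in MD1 (7 after centring), with a median difference of -0.65. Hoxd13 (2.21 and 0.91) was the 1 at least 2-fold lower. Over autosomal genes 13686 of 19836 were lower, and after centring 9918 were higher. Before centring, 20.4% of autosomal genes were at least 2-fold lower, as were 2.24% of those in the WT range of the chosen genes. In WT the levels thus differed along HoxA, from 0.25 at Hoxa2 to 2.32 at Hoxa13. In MD1 the 10 HoxA genes analysed lay between 0.97 and 1.76, a range of 0.79 against 2.06 in WT. Along HoxD the range over 9 genes was 1.97 in WT and 1.52 in MD1, and the highest levels lay at Hoxd11, Hoxd12 and Hoxd1 in WT and at Hoxd3, Hoxd1 and Hoxd4 in MD1. The correlation between WT and MD1 values was 0.084 over the 10 HoxA genes and 0.29 over the 9 HoxD genes. These are descriptions over genes that share their libraries and, in part, their reads.

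**Figure D2:**
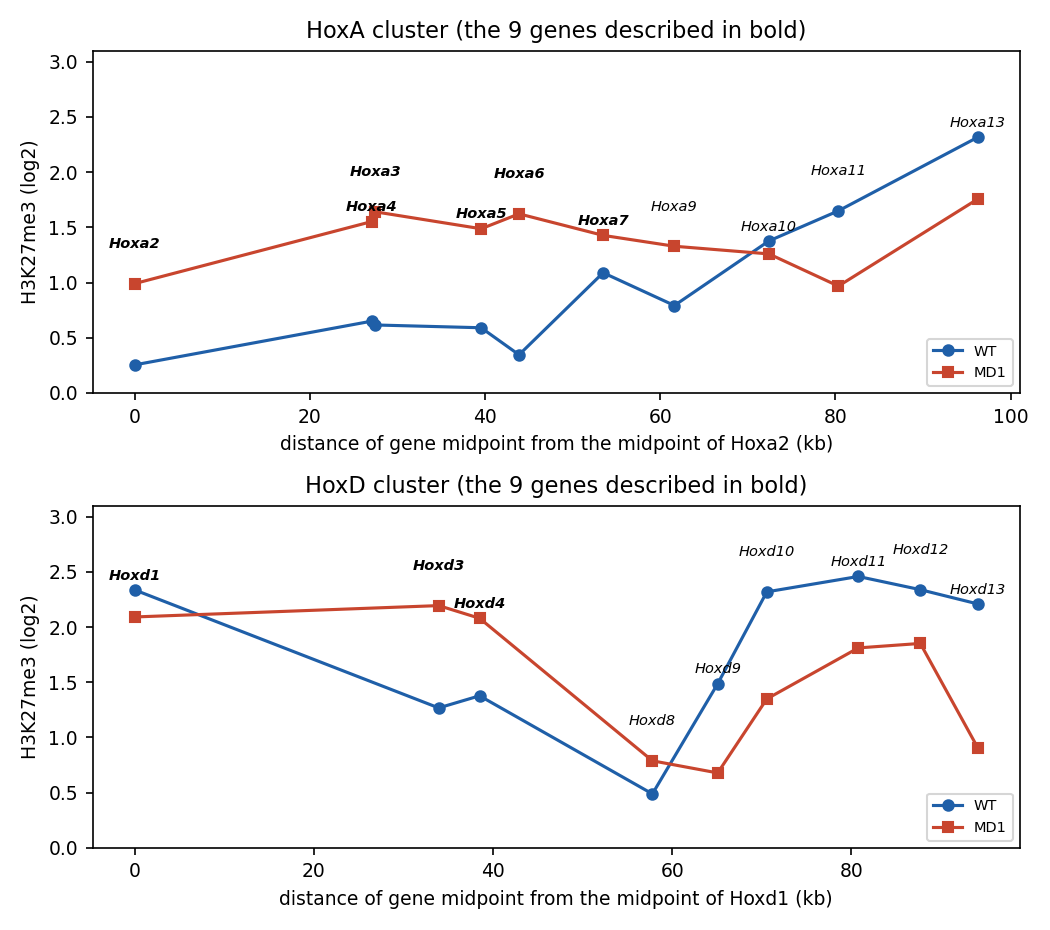
H3K27me3 enrichment (log2) of the Hox genes of HoxA (top) and HoxD (bottom) in WT (circles) and MD1 (squares) against the distance in kb of each gene's midpoint from that of Hoxa2 or Hoxd1; each point is 1 value without replicates, and the lines join neighbours. MD1 lies above WT from Hoxa2 to Hoxa9 and from Hoxd3 to Hoxd8 and below it from Hoxa10 to Hoxa13 and from Hoxd9 to Hoxd13, while the differences of Hoxd1, -0.24, and Hoxa10, -0.12, become 0.027 and 0.15 after centring on the autosomal median.

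Of 20 neighbouring genes outside the clusters, 5 on each side of each, 4 had a positive difference, against the autosomal 31.0%, and 8 were at least 2-fold lower, against 20.4%. The median of these 20 differences was -0.67. Many of the 20 stood at low levels. After subtracting autosomal genes alike in level and length, 7 were positive, 3 were 2-fold lower and the median was -0.13. The shares above are not the background for these counts. So matched, 9845 of the 19836 autosomal genes had positive differences, and among all 20606 genes 810 passed the 2-fold limit downwards. On the anterior side of HoxA, the noncoding gene Halr1, 48.7 kb from Hoxa2, stood at 0.61 in WT and 0.63 in MD1, and Skap2, encoding a signalling adaptor, at -0.25 and -0.26. On the anterior side of HoxD, Mtx2, encoding a mitochondrial import protein 60.7 kb from Hoxd1, stood at -1.70 and -2.43. Evx1 and Evx2, homeobox genes at the posterior ends, went opposite ways, from 2.42 to 3.07 and from 1.41 to 0.59.

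The same paralog groups of the HoxB and HoxC clusters had larger differences. Of 10 HoxB and HoxC genes of groups 1 to 7, 8 were at least 2-fold higher in MD1, against 2 of the 9 HoxA and HoxD genes, and the median difference was 1.47 against 0.90. In each of the 7 paralog groups every HoxB and HoxC gene had a larger difference than every chosen HoxA or HoxD gene of that group. In group 4, Hoxa4 and Hoxd4 differed by 0.90 and 0.70, and Hoxb4 and Hoxc4 by 1.65 and 1.49. In group 6, Hoxa6 differed by 1.28, Hoxb6 by 1.54 and Hoxc6 by 2.20. The pooled WT medians were close, 0.65 for the 9 genes and 0.49 for the 10, whereas the MD1 medians were 1.62 and 2.13. The 2 clusters of the 9 genes differed in this. The HoxA genes had medians of 0.60 in WT and 1.52 in MD1. The HoxD genes, with 1.38 and 2.09, started above the pooled HoxB and HoxC median and ended near it. With 1 library per genotype the difference between clusters could not be tested.

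**Figure D3:**
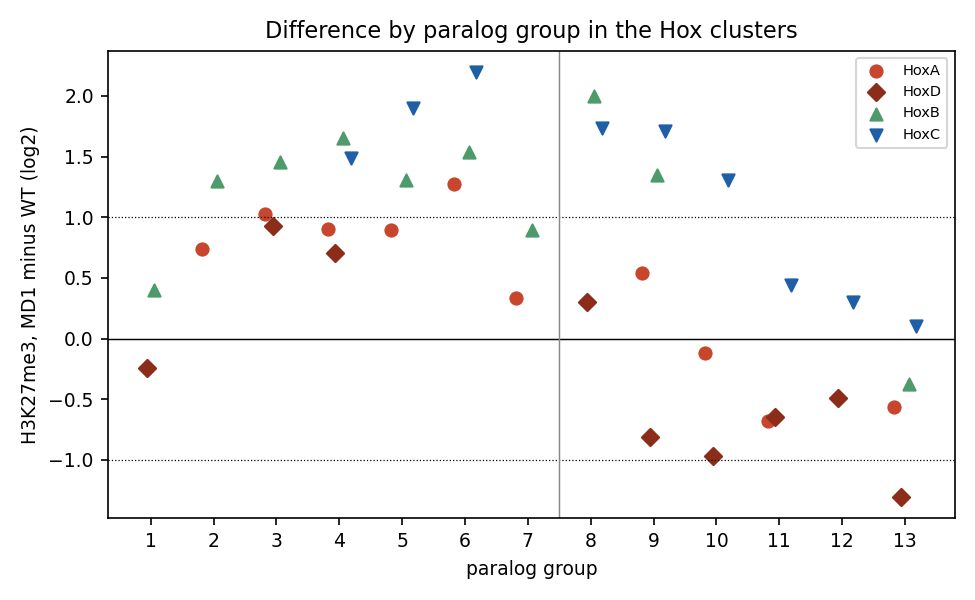
Difference in H3K27me3 (MD1 minus WT, log2) of each Hox gene by paralog group, with HoxA (circles), HoxD (diamonds), HoxB (upward triangles) and HoxC (downward triangles); dotted lines mark 2-fold, the grey line separates groups 1 to 7 from the posterior groups, and there were no replicates. Within each of groups 2 to 7 the HoxA and HoxD points lie below those of HoxB and HoxC, and Hoxd1 is the one point of groups 1 to 7 below 0 (-0.24, or 0.027 after centring on the autosomal median).

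Set among all autosomal genes, the 9 lay in the upper part of the enrichment range. Over autosomal genes MD1 values rose with a slope of 1.25 on WT values, so a higher MD1 value is more usual at a higher level. After subtracting the median difference of autosomal genes alike in mean level and length, 8 of the 9 differences stayed positive, from 0.24 at Hoxa7 to 1.21 at Hoxa6, and Hoxd1 stood at -0.34. By this measure 9845 of the 19836 autosomal genes were positive. Hoxa6 alone passed the 2-fold limit by this measure, which 3.16% of autosomal genes did. With genes alike in WT value and length subtracted, the differences ran from -0.23 at Hoxd1 to 1.32 at Hoxa6, and both Hoxa6 and Hoxa3 passed the limit, with a background of 4.25%.

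**Figure D4:**
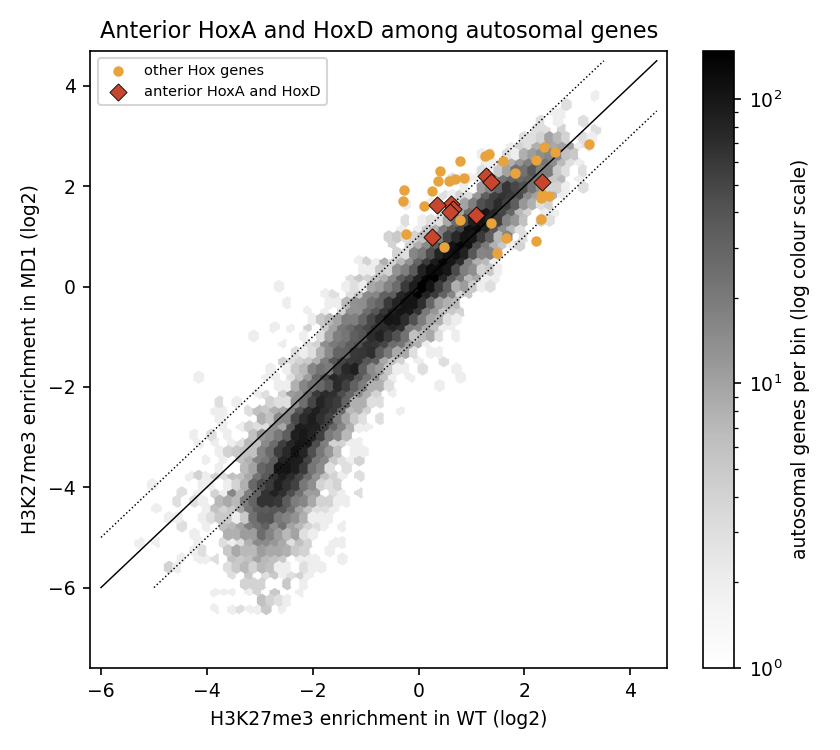
H3K27me3 enrichment (log2) in WT and MD1 of the 19836 autosomal genes (grey bins, darker for more genes on a log colour scale), with the 9 genes described as diamonds and the other Hox genes as dots; the solid line is equality, the dotted lines are 2-fold, and each gene has 1 value per genotype. Hoxa6 and Hoxa3 lie above the upper dotted line, 6 others lie between it and equality, and Hoxd1 lies below equality (-0.24, or 0.027 after centring on the autosomal median).

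The 8 promoter windows held between 4 (Hoxd4) and 29 (Hoxa5 and Hoxd1) CpG dinucleotides, with a median of 20 against 7 over 32544 promoter windows of the same length. Hoxa6 held 26, Hoxa3 and Hoxd3 20 each, and Hoxa2 and Hoxa7 9 each, and the G and C content ran from 39.7% (Hoxd4) to 69.7% (Hoxd1). Hoxa5 and Hoxd1, with the same number, had WT values of 0.59 and 2.34 and differences of 0.90 and -0.24. The MD1 levels of Hoxd4 and Hoxd1, with the fewest and the most, were 2.08 and 2.09. Hoxa6 and Hoxa3, with the largest differences, held 26 and 20 CpG dinucleotides. Hoxa2 and Hoxa7, with 9 each, differed by 0.74 and 0.34, and Hoxd4, with 4, by 0.70. A relation between CpG number and difference was not tested. On either strand, the Hox-Pbx motif TGATNNAT was found in 1 window, that of Hoxa2, and in 8.79% of all windows. TATAAA was found in 1, that of Hoxd4, against 13.6%, CCAAT in 6 against 37.4% and GAGAG in 6 against 62.1%. A match describes these letters only. The annotated start of Hoxa3 lies beyond Hoxa6, and the window printed for a gene need not be where the mark lies, since the table gives 1 value per gene.

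Genes around the Hox pathway were counted against the autosomal share of 31.0% with a positive difference, and their sign depended on the scaling. Counts after centring stand against 9918 of the 19836 autosomal genes, since centring on the median splits these genes evenly. As background for the 2-fold counts below, the limit was passed upwards by 1.61% of autosomal genes and downwards by 20.4%. Of 9 genes for the Hox cofactors of the Meis, Pbx and Pknox families, 2 had a positive difference (6 after centring) and none was at least 2-fold higher, with a median of -0.16 that turned to 0.11 after centring. Meis1, a cofactor gene of the Meis family, went from -1.35 to -0.43, and Pbx2 from -0.93 to -2.11. Of 18 genes of the retinoic acid pathway, which switches on anterior Hox genes in the embryo, 8 were positive (14 after centring), 2 at least 2-fold higher and 2 lower, and their median was -0.036, or 0.24 after centring. Those higher were Crabp1, encoding a retinoic acid binding protein (-1.10 and 0.58), and Cyp26a1, encoding a retinoic acid-degrading enzyme (2.31 and 3.32). Those lower were the receptor genes Rarg (-1.37 and -3.08) and Rara (-2.44 and -3.68). Among 11 genes known to regulate Hox genes, 5 were positive (7 after centring) and 1, the histone acetyltransferase gene Kat6a (-2.47 and -3.87), was at least 2-fold lower; the list's median was -0.022, or 0.25 after centring. Gbx2, a homeobox gene of the anterior hindbrain, went from 2.40 to 3.34. The 25 genes of a list of Polycomb subunits and of other chromatin regulators known to act on H3K27, on H3K4 or at Hox clusters all had negative differences (6 were positive after centring), 11 of them at least 2-fold, with WT and MD1 medians of -2.23 and -2.97. Ring1 (-1.57 and -3.99), Phf1 (-2.46 and -4.84), Rbbp4 (-2.86 and -4.95) and Bmi1 (-0.37 and -2.22) had the largest. After subtraction of autosomal genes alike in level and length, 13 of these 25 were positive and their median was 0.019. By that measure 9845 of the 19836 autosomal genes were positive.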

How the data were processed

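H3K27me3 ChIP-seq had been made from 4 libraries, a ChIP and an input for each genotype. The authors deposited 1 table of log2 enrichments per gene, with 1 column per genotype per the file headers. The submitters' processing notes name the build mm9, but how reads were aligned, counted and filtered, and what the enrichment is relative to, is not given in the sources used here. Starts were raised by 1 to count from 1. Within a relative tolerance of 1e-12, 99.99% of WT values and 99.98% of MD1 values could be written as 1 constant per column plus log2 of 1 whole number over another, none above 20000.

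The difference was MD1 minus WT, with a limit of 2-fold. Alternatives were adding 0.01 or 1 to the linear ratio, centring on the autosomal median, subtracting the median difference of 500 autosomal genes closest in mean level or in WT value within 4 length quartiles, limits of 1.5-fold and 3-fold, leaving out genes under the 25th percentile of mean level, means, and leaving out overlapping genes. The matching was also run on simulated data with the same scatter at every gene, unlike the real data. For matching on mean level only the sign of the simulated shift was checked there. The genes, the 14 lists and the tests were chosen with earlier results of these data known. The text names the 9 genes, their cluster and flanking genes, up to 4 genes of a list with the largest absolute difference (some lists are given by their counts alone) and the genes nearest in both values. Some genes that this rule names are not reported here. Calculations used Python 3.11.15, numpy 2.4.6 and pandas 2.3.3.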

Additional observations from a re-analysis of the deposited data

How the results depend on the processing

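The direction held at 8 of the 9 genes under each of the 5 alternatives tried on single genes (2 pseudocounts, centring and both kinds of matching). Hoxd1 turned from -0.24 to 0.027 when centred on the autosomal median. Beyond the yardstick SD moved Hoxa3, to 0.70 with a pseudocount of 1 and to 1.30 when centred, and Hoxd3, to 1.20 when centred. The number of the 9 genes at least 2-fold higher in MD1, 2, depended on the limit, since 5 genes lay between differences of 0.70 and 0.93. It was 0 with a pseudocount of 1, 6 when centred, 1 when level-matched, 7 at 1.5-fold, 0 at 3-fold, 0 of the 3 genes overlapping no other, and 1 without Hoxa3 and Hoxd3, a choice made after seeing the data.

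Over all genes with values, 490 were at least 2-fold higher and 4187 lower. With a pseudocount of 1 these numbers were 82 and 94, when centred 926 and 2766, level-matched 774 and 810, WT-matched 1019 and 1156, at 1.5-fold 1368 and 6982, and at 3-fold 123 and 1618. Above the 25th percentile of mean level 830 were lower. No paired analysis was possible because each genotype had 1 library of each kind, and leaving out a replicate was not possible for the same reason.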

Other observations

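Noncoding genes listed inside or next to the clusters were also read. Mira, inside HoxA, had no value in either genotype. Hoxaas3, antisense over one end of Hoxa3, went from 0.70 in WT to 1.64 in MD1. Hoxd3os1, antisense at the 5′ end of Hoxd3, went from 0.87 to 1.59, and Haglr, between Hoxd4 and Hoxd1, from 1.54 to 2.10. LOC102634401, on the other strand inside Haglr, stood at 1.63 in WT and differed by -0.12, negative like Hoxd1, and turned positive, like Hoxd1, when centred on the autosomal median. Towards the posterior end of HoxA the order was the other way, with Hoxa11os at 1.49 and 1.06 and Hottip, beyond Hoxa13, at 2.17 and 1.56. Further out, 47.5 kb beyond Hoxa13, 5730457N03Rik, which overlaps Evx1, rose from 2.30 to 2.78. Apart from 5730457N03Rik, the genes of this paragraph overlap or adjoin Hox genes, so their values are not independent of them.

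The genes outside the Hox clusters with values most like the medians of the 9, by Euclidean distance over the WT and MD1 log2 values, were Gyk, Tbl1x and Gm773 on the X chromosome, Lalba on chromosome 15 and Agxt on chromosome 1, at distances of 0.013 to 0.027. Of the genes nearest to each single gene, 5 of 9 were also X-linked, Amot for Hoxa3, Mageb16-ps1 for Hoxa5, Nudt11 for Hoxa6, Rhox11 for Hoxd3 and Gprasp2 for Hoxd4. Of the 20606 genes with values, 19836 were autosomal. With 2 values per gene this likeness is a description only, and a relation to the X chromosome was not tested.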
